A study of Arabidopsis thaliana with 28 samples.

Results

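RNA polymerase V (Pol V) transcripts from the middle of Arabidopsis chromosome 2 were followed across 11 genotypes. The windows described are those with a start between 4000000 and 12000000 on chromosome 2 that the authors' lists class as transcribed by Pol V. There were 30496 of them among 362681 Pol V windows and 794311 windows in all (8.41% of the Pol V windows). Of these members, 17489 were in the list of windows transcribed by Pol V in RNA-directed DNA methylation (RdDM) and 13007 in the list of Pol V windows outside RdDM. A further 22838 windows of the same interval were classed as not transcribed by Pol V. The interval was selected on counts of ago4, spt5l, suvh2 and suvh2/suvh9, which had been looked at, and the class lists separate Pol V from nrpe1 background. Values of those 5 genotypes are therefore a description, with no test.

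Pol V is a plant-specific polymerase that makes non-coding RNA at transposons and other repeats. In the RdDM pathway small interfering RNAs bound by an argonaute such as AGO4 pair with these transcripts, and the methyltransferase DRM2 is brought to the locus to methylate cytosines. DRD1 and DMS3 act upstream by allowing Pol V to transcribe, SUVH2 and SUVH9 bind methylated DNA and help to place Pol V, and SPT5L is an elongation factor-like protein that also contacts AGO4.

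IPARE, an immunoprecipitation with an antibody against NRPE1 (the largest Pol V subunit) followed by sequencing of RNA 5′ ends, gave 1 library for each sample of 18-day-old seedlings. The mutants were ago4 (n = 2), spt5l (n = 2), suvh2, suvh2/suvh9, suvh9, drd1 and dms3 (n = 1 each), dms5-1 and drd3-3 (n = 2 each) and nrpe1 (n = 5), and the wild type was Col-0 (n = 6). All are labelled ecotype Columbia, ago4 included, and the labels name an allele only for dms5-1 and drd3-3. Libraries carry a set tag that the labels do not explain: none, gp2, gp3, gp4, gp5 or gp6. Each set has a Col-0 library. The ago4 libraries are from gp2 and gp3, those of spt5l from the untagged set and gp3, all single libraries from gp4, and dms5-1 and drd3-3 from gp5 and gp6. Bisulfite sequencing of 3.5-week-old leaves of nrpe1 and Col-0 (n = 2 each) gave DNA methylation as averages per genotype. Nothing in the labels says which libraries came from separate plants, so a spread between libraries may be technical.

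Library totals ran from 785943 to 6957714 window counts, and ribosomal DNA took 25.4% to 70.1% of them. The members held 83863 and 156779 counts in ago4, 201520 and 261919 in spt5l, 94920 in suvh2, 35560 in suvh2/suvh9 and 30446 to 292409 in Col-0. In nrpe1 they held 1840 to 9746 counts. A window of 200 bp overlaps the next by 50 bp, so neighbouring windows share reads.

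The members as a whole gave less Pol V RNA in ago4 than in Col-0, relative to the Pol V windows of chromosomes 1, 3, 4 and 5 of the same library. The ratio was 8.24 member counts per 100 counts of those chromosomes in ago4 of gp2 and 7.42 in ago4 of gp3. In Col-0 it ran from 11.0 to 11.8 with a median of 11.5 (mean 11.4 ± 0.364, SD, n = 6). Whole seedlings were used, so fewer cells with Pol V transcripts and less RNA per cell cannot be told apart. Both ago4 libraries lay below every Col-0 library, and the ago4 level was 0.685 times that of Col-0. The log2 difference was -0.55 with a standard error of 0.08, and it was -0.42 within gp2 and -0.60 within gp3. Ribosomal DNA took 43.9% and 45.9% of the counts in ago4, 25.4% and 34.0% in spt5l and 29.1% to 41.3% in Col-0, and its part in the difference was not tested.

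The spt5l libraries did not share this. They had 12 (untagged) and 11.6 (gp3) member counts per 100, inside or just above the Col-0 range, and a log2 difference of 0.04 with a standard error of 0.03. Suvh9 had 11.2 per 100, against 11.8 in Col-0 of gp4. Suvh2 had 9.42 and suvh2/suvh9 9.27 per 100, each in a single library, and both lay below the 11.8 of Col-0 of gp4. Their counting intervals were narrow (9.36 to 9.49 for suvh2, 9.17 to 9.37 for suvh2/suvh9, 95% Wilson), and they cover counting error only.

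The lower suvh2 and suvh2/suvh9 ratios moved with windows that also had reads in nrpe1. In 101 members (0.331%) the 5 nrpe1 libraries together had 20 or more reads. These windows held 5.65% of the member counts in suvh2 and 10.8% in suvh2/suvh9, but 1.94% in Col-0 of gp4. On chromosomes 1, 3, 4 and 5, leaving such windows out lowered the Pol V counts from 1007203 to 666150 in suvh2. In suvh2/suvh9 they fell from 383787 to 262578 and in Col-0 of gp4 from 1165303 to 1089276, so the divisor of the ratio moved too. Without such windows on any chromosome, the log2 difference to Col-0 of gp4 was 0.12 for suvh2 and -0.03 for suvh2/suvh9, in place of -0.32 and -0.35. For ago4 it was -0.47 and for spt5l 0.04. The lower level of the members in ago4 was thus also measured without these windows, while that of suvh2 changed its sign.

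**Figure D1:**
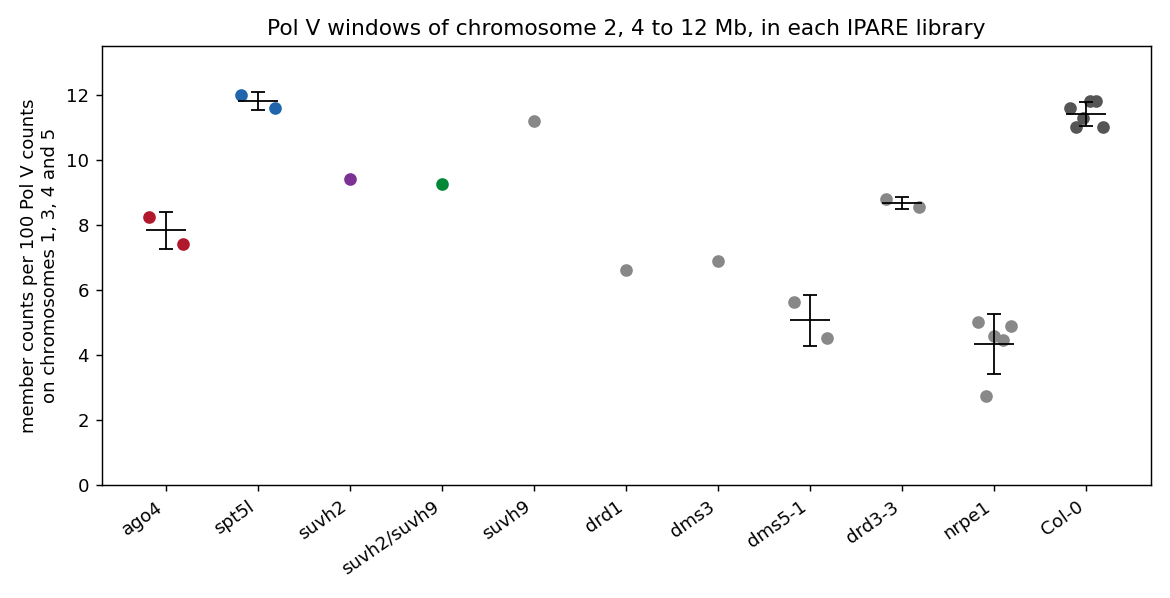
Counts in the 30496 members per 100 Pol V counts on chromosomes 1, 3, 4 and 5, for each of the 24 IPARE libraries (points), with the mean and SD where a genotype has more than 1 library. The ago4 libraries sit at 8.24 and 7.42, the spt5l libraries at 12 and 11.6, and the 6 Col-0 libraries between 11.0 and 11.8.

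Genotypes with little Pol V RNA left also had low ratios. The ratio was 6.60 in drd1 and 6.89 in dms3, against 11.8 in Col-0 of gp4. Nrpe1 had 2.73 to 5.02 per 100 with a median of 4.58 (n = 5). Dms5-1 had 5.62 and 4.52 and drd3-3 8.80 and 8.55 per 100, below all 6 Col-0 libraries. These were the comparisons that could be tested. Dms5-1 differed by -1.18 (standard error 0.16) and drd3-3 by -0.40 (0.03) on the log2 scale. Each had p = 0.0357 in an exact two-sided permutation test over libraries, the smallest value that 28 splits allow (adjusted p = 0.0357 over both exact tests). Within sets gp5 and gp6 the mean differences were -1.18 and -0.39, where 2 pairs allow no exact p under 0.5, so the call is lost when the set is taken as a replicate block. As a share of all counts outside ribosomal DNA the differences were -3.46 for dms5-1 and -1.76 for drd3-3. The tests compare sums, so they do not show a change particular to this interval. Nrpe1, whose background the class lists set apart from Pol V, was low in the same ratio. A low ratio could thus be foreseen in genotypes with little Pol V RNA, and the p-values are no independent support. In dms5-1, stretches of each other chromosome were low as well, as given under other observations. Windows rich in nrpe1 reads held 30.9% and 31.6% of the member counts in dms5-1, 13.7% and 11.0% in drd3-3 and 1.74% to 2.45% in Col-0. Leaving such windows out also lowered the Pol V counts of chromosomes 1, 3, 4 and 5. In dms5-1 they fell from 30358 to 12861 (gp5) and from 54753 to 20243 (gp6). In drd3-3 they fell from 70160 to 46040 and from 74004 to 49012. Without nrpe1-rich windows the log2 differences were -0.51 for dms5-1 and -0.11 for drd3-3, with the same exact p. They were -0.54 for nrpe1, -0.18 for drd1 and -0.18 for dms3.

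The lower counts in ago4 ran as a block along the chromosome. In bins of 100 kb, each ago4 library was set against Col-0 of its own set, both scaled to the Pol V windows of the other chromosomes. The log2 ratio was below 0 in 68 of 80 bins of the interval in ago4 of gp2 and in 77 of 80 in ago4 of gp3. On chromosomes 1, 3, 4 and 5 it was below 0 in 52.9% and 71.3% of bins. The median bin of the interval was at -0.44 in gp2 and -0.56 in gp3, against -0.03 and -0.09 on the other chromosomes. In spt5l, 32 of 80 bins (untagged) and 30 of 80 (gp3) were below 0. On chromosomes 1, 3, 4 and 5 the spt5l ratio was below 0 in 55.6% (untagged) and 39.0% (gp3) of bins.

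A single changed segment was then placed on the chromosome where it left the smallest residual. For the mean of the ago4 libraries it ran from 2.6 to 12 Mb, with a mean log2 ratio of -0.56 inside and -0.11 outside, and it took up 24.8% of the variance between bins. The segment began at 3.1 Mb in ago4 of gp2 and at 2.5 Mb in ago4 of gp3, and it ended at 12 and 11.9 Mb. The right edge thus coincided with the limit of the interval, while the left edge lay outside it. Just left of the limit at 4 Mb, the bin from 3.9 Mb was at -0.38 and -0.37 in ago4 of gp2 and gp3, and just right of it the bin from 4.0 Mb was at -0.62 and -0.91. At the other limit, the bin from 11.9 Mb was at -0.53 and -0.23, and the bin from 12 Mb was at 0.49 and -0.05. From 12 to 13 Mb the summed Pol V counts of ago4 were at 0.10 and 0.03 on the same scale, and below 2.5 Mb they were at 0.00 and 0.00. They were also below 0 outside the interval, at -0.30 and -0.63 from 2.5 to 4 Mb, -0.38 and -0.17 from 13 to 14 Mb and -0.12 and -0.11 beyond 14 Mb. In ago4 of gp2 the step from 13 to 14 Mb was thus lower than that from 4 to 6 Mb.

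In steps of 2 Mb both ago4 libraries were below Col-0 of their set in each step of the interval. The log2 ratio was -0.23 and -0.62 (gp2 and gp3) from 4 to 6 Mb, -0.39 and -0.58 from 6 to 8 Mb, -0.62 and -0.68 from 8 to 10 Mb, and -0.52 and -0.54 from 10 to 12 Mb. The lowest bin, from 4.4 to 4.5 Mb, was at -3.20 and -3.70. Its Pol V windows had 271 and 115 counts in ago4, against 1864 in Col-0 of gp2 and 2188 in Col-0 of gp3. The same bin had 3297 and 2632 counts in spt5l and a log2 ratio of 0.04 and 0.18. The highest bin in ago4, from 5.4 to 5.5 Mb, was at 0.38 and 0.11.

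The segments placed for the mean of spt5l, for suvh2 and for suvh2/suvh9 were not lower over this interval. The segment placed for the mean of the spt5l libraries ran from 10.6 to 11.8 Mb, was higher inside by 0.22 and took up 6.06% of the variance. Placed library by library it was higher inside by 0.27 in the untagged one, from 1.1 to 7.3 Mb, and lower by 0.30 in gp3, from 2.5 to 6.8 Mb, so the libraries went in opposite directions. The suvh2 segment ran from 1.7 to 6.6 Mb and that of suvh2/suvh9 from 2.5 to 7.2 Mb, with log2 ratios inside that were higher than outside by 0.63 and 0.64. Their right edges depended on the bins: with bins of 50 or 250 kb or capped windows, that of suvh2 lay at 5.7 to 7.0 Mb and that of suvh2/suvh9 at 3.75 to 5.3 Mb. Their bins were below 0 in 68 of 80 cases in each of suvh2 and suvh2/suvh9, beside 86.5% and 76.3% on the other chromosomes. From 8 to 10 Mb suvh2 was at -0.68 and suvh2/suvh9 at -0.73, against 0.02 and -0.11 from 4 to 6 Mb.

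**Figure D2:**
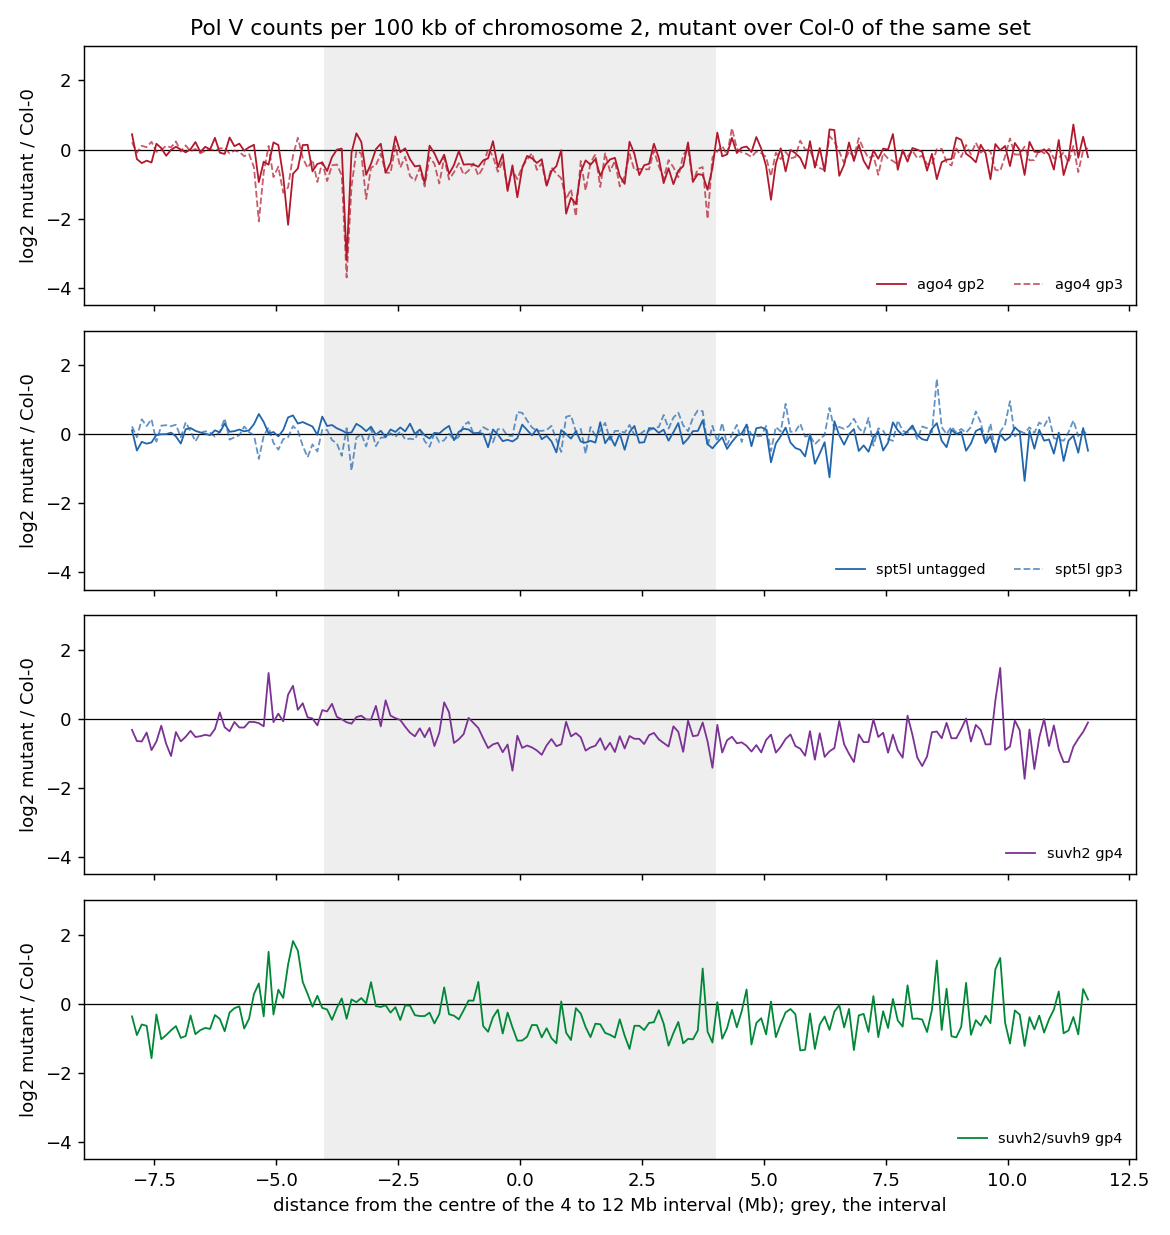
Log2 ratio of Pol V counts per 100 kb bin of chromosome 2, mutant over Col-0 of the same set, against the distance in Mb from the centre of the interval (grey). The ago4 libraries stay mostly below 0 inside the grey area (68 and 77 of 80 bins) and return to about 0 at its right limit, while suvh2 and suvh2/suvh9 are low on both sides of that limit.

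Many members had no ago4 read at all. Over the 6 Col-0 libraries, 6437 members (21.1%) had 30 or more reads. Of these, 579 had no read in either ago4 library, or 8.99% (95% Wilson interval 8.32 to 9.72), against 2.24% of the 62820 such Pol V windows of the whole genome. On the rest of chromosome 2 the share was 2.64% (155 of 5867), and on the other chromosomes 1.34% (675 of 50516). In single libraries, 737 of the 6437 members were without a read in ago4 of gp2 and 1310 in the shallower ago4 of gp3. In spt5l, 65 members (1.01%) lacked a read, beside 0.973% in the whole genome. In suvh2 it was 9.62%, beside 10.3% in the whole genome, and in suvh2/suvh9 25.5%, beside 25.0%. Suvh9 had 2.07%, beside 1.94%. The genotypes with the least Pol V RNA lacked reads in most members, in step with the genome. The share was 59.8% in drd1, beside 59.4%, and 55.8% in dms3, beside 56.8%. It was 88.2% in dms5-1, beside 85.7%, 57.1% in drd3-3, beside 56.4%, and 50.1% in nrpe1, beside 47.2%. A window counts here only with 0 reads over all libraries of the genotype, and their number and depth differ. The shares therefore do not rank the genotypes. In single libraries, 66.0% to 92.7% of members lacked a read in nrpe1, 94.4% and 91.6% in dms5-1 and 78.1% and 69.1% in drd3-3.

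The windows without ago4 reads were spread over the interval. In steps of 500 kb their share ran from 2.73% to 15.3% with a median of 8.13%, and 14 of 16 steps were above 5%. On the other chromosomes 9 of 195 steps were above 5%, with a median of 1.00%. The 579 windows formed 364 separate runs, of which 240 were single windows. The longest, of 7 windows and 1100 bp at chr2:6885451-6886550, lay in the pseudogene AT2G15810. The 5 runs of 6 windows lay in the pseudogenes AT2G21310 and AT2G26220, between the transcribed pseudogene AT2G16367 and THY-1, a thymidylate synthase gene, in PAP11, a purple acid phosphatase gene, and in the protein-coding gene AT2G17920. These genes were chosen after their values were seen. A run also ends at a neighbour with too few Col-0 reads to be counted, so the runs do not show ago4 reads between them. In each step of 500 kb at most 15.3% of the counted windows were without an ago4 read, so no step was a gap as a whole.

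These 579 windows had reads in spt5l and the suvh mutants and fewer in the mutants with little Pol V RNA. Per 1000000 Pol V counts on chromosomes 1, 3, 4 and 5 they had 5150 counts in each spt5l library, 4060 in suvh2, 3320 in suvh2/suvh9, 5270 in suvh9 and 4730 to 5580 in Col-0. In spt5l 551 (untagged) and 546 (gp3) of them had a read. On that scale they had 1370 counts in drd1, 1750 in dms3, 560 and 511 in dms5-1, 2410 and 2950 in drd3-3 and 301 to 1070 in nrpe1. RdDM windows made up 86.4% of them, about the 85.1% among all members with 30 reads. Pseudogenes held 17.6% of the windows without ago4 reads, against 10.1% of all members with 30 Col-0 reads.

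**Figure D3:**
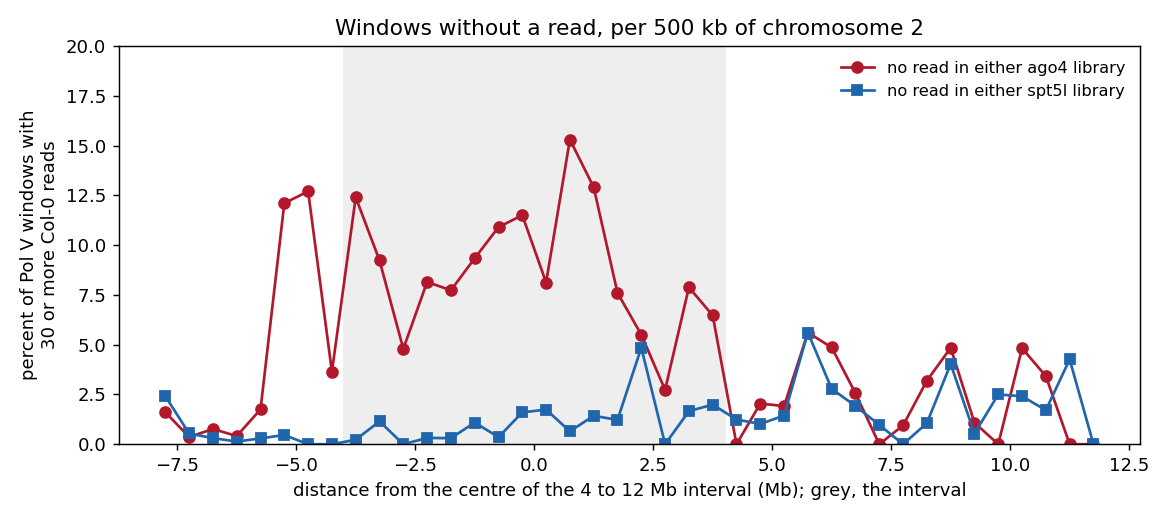
Percent of Pol V windows with 30 or more Col-0 reads that had no read in either ago4 library (circles) or either spt5l library (squares), per 500 kb of chromosome 2, against the distance from the centre of the interval (grey). Inside the interval the ago4 share runs from 2.73% to 15.3%. The step just left of it, from 3.5 Mb, is at 3.64%, and those from 2.5 and 3.0 Mb are at 12.1% and 12.7%.

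The distribution over single windows was broad in ago4. Among the 6437 members with 30 Col-0 reads, the median ratio of ago4 to Col-0 of the same sets was 0.602 (quartiles 0.157 and 1.03), against 0.936 (0.641 and 1.27) for 50516 windows on the other chromosomes. The ratio was below 0.25 in 30.1% of members and in 7.65% of windows on the other chromosomes. A ratio within 2-fold of 1 was seen in 51.7% of members and in 78.5% elsewhere. The block therefore held both windows with no ago4 reads and windows at the Col-0 level. For spt5l the median was 0.932 among members and 0.920 on the other chromosomes, and for suvh9 0.960 and 1.00. For suvh2 it was 0.578 and 0.553, and for suvh2/suvh9 0.506 and 0.486.

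**Figure D4:**
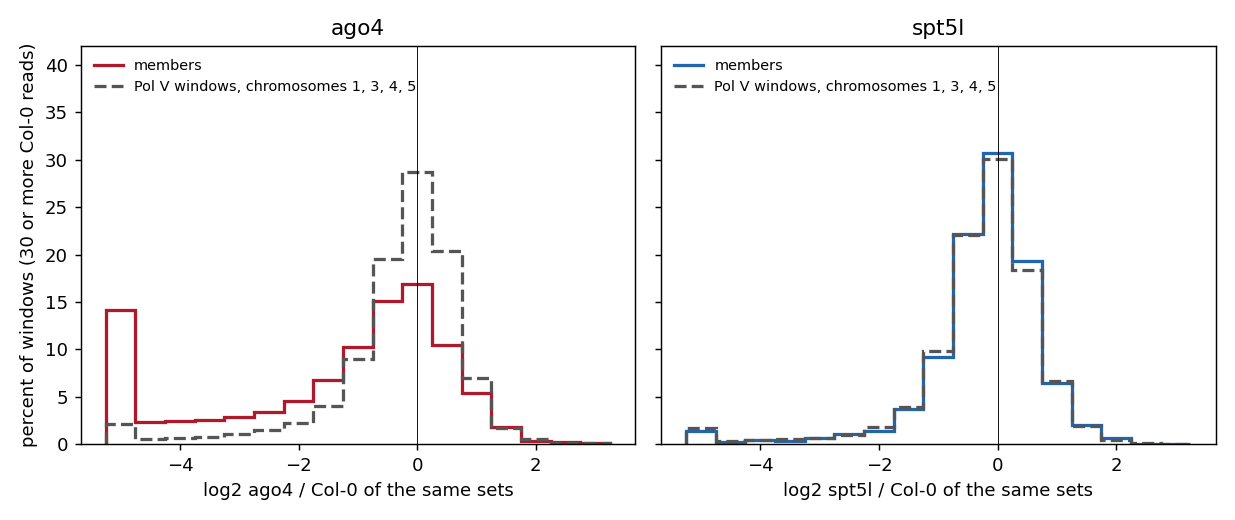
Distribution of the log2 ratio to Col-0 of the same sets over Pol V windows with 30 or more Col-0 reads, for ago4 (left) and spt5l (right), members (solid) and Pol V windows of the other chromosomes (dashed). The lowest class holds all ratios under -4.75, windows without a mutant read included: 14.2% of members in ago4 and 1.43% in spt5l, against 2.10% and 1.68% of windows on the other chromosomes.

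Window by window, edgeR's quasi-likelihood test over 36843 windows with enough reads called 929 of the 3151 members tested lower in ago4 than in Col-0 (29.5%), where 8.53% of all windows tested were called lower. It called 78 members higher (2.48%), beside 1.86% of all windows. These calls (adjusted p under 0.05, Benjamini-Hochberg over all windows tested) describe a contrast that was used to choose the interval. Only 10.3% of the members had enough reads to be tested. The median fitted log2 change was -0.69 over the members tested and -0.02 over all windows with TMM scaling. With DESeq2 size factors the medians were -1.22 and -0.53 and with library totals -1.21 and -0.53, so these scalings moved all windows, and the members' median lay below that of all windows by -0.67, -0.70 and -0.67 with the 3 scalings. Without the ago4 library of gp2 the members called lower numbered 424, and without that of gp3 555. The members called higher numbered 37 without ago4 of gp2 and 162 without Col-0 of gp3.

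The members called lower in ago4 were spread evenly by position and class. From 26.2% to 33.9% of those tested were lower in each of the 8 steps of 1 Mb. The share was 29.8% in the RdDM class and 27.8% in the class outside RdDM. On the rest of chromosome 2, 8.27% of Pol V windows tested were lower.

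In spt5l 122 members were called lower than in Col-0 (3.87%), beside 3.81% of all windows tested, and 26 were higher (0.825%), beside 0.722%. These shares were those of the background. Only 2 members were called lower without the untagged spt5l library, 12 without that of gp3 and 198 without Col-0 of gp3. The members called higher numbered 0 without the one or the other spt5l library and 65 without Col-0 of gp3. Leaving out the untagged wild-type library gave 13 such members, leaving out that of gp2 gave 16, and that of gp4 also 16. Set directly against spt5l, ago4 was lower in 791 members (25.1%), where 5.46% of all windows tested were lower, and higher in 85 (2.70%), beside 2.72%. These calls too are a description, since the interval was chosen on counts of both genotypes. The count of lower members in that comparison was 373 without ago4 of gp2 and 515 without ago4 of gp3. Members higher in ago4 than in spt5l numbered 38 without ago4 of gp2, 37 without spt5l of the untagged set and 35 without spt5l of gp3.

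Overlapping calls merged into 383 lower and 53 higher regions in ago4 and into 74 lower and 19 higher regions in spt5l. Of the 383 lower regions in ago4, 70 had their midpoint in a gene, and 21 of those genes were pseudogenes. In 108 of the 383 the strongest window had no read in either ago4 library. Values below are counts per 1000000 counts of the library (CPM) in that strongest window. The totals include ribosomal DNA, which took 43.9% and 45.9% in ago4 and 29.1% to 41.3% in Col-0. With library totals the median log2 change of all windows in ago4 was -0.53, against -0.02 with TMM. Folds for ago4 below are from totals, so losses come out larger and gains smaller than with TMM. Genes are named from RefSeq's table of a close but not identical build, and a region between genes is named by its neighbours.

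The 8 regions lowest in ago4 all had no ago4 read in their strongest window and all were of the RdDM class. At chr2:5865601-5866250, between AT2G13975 and AT2G13980, ago4 had 0 in both libraries, spt5l had 59.4 and 38.5 CPM and Col-0 had 19.6 to 37.9 CPM (median 29.6), so that ago4 was at least 119-fold lower than Col-0 (floor of 3 counts over both ago4 libraries). At chr2:6391051-6392150, between AT2G14870 and AT2G14878, ago4 had 0 in both, spt5l 35.4 and 22.1 CPM and Col-0 11.5 to 27.4 CPM (median 21.0), at least 84.2-fold lower in ago4. In both places the spt5l libraries lay inside or above the Col-0 range. In the pseudogene AT2G15800 at chr2:6880951-6881750, ago4 had 0, spt5l 21.7 and 12 CPM and Col-0 8.19 to 29.4 CPM (median 20.8). In RLP18, a receptor-like protein gene annotated as a transcribed pseudogene, the region spanned 14 windows at chr2:6507001-6509150. Its strongest window had 0 in ago4, 36.2 and 10.1 CPM in spt5l and 8.19 to 18.7 CPM in Col-0 (median 12.2). The strongest windows of these pseudogenes thus had reads in every library of spt5l and Col-0 and none in ago4.

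The remaining 4 of these regions lay between genes. At chr2:7056601-7057250, between the non-coding RNA gene AT2G06605 and AT2G16290, ago4 had 0, spt5l 15.5 and 17.7 CPM and Col-0 13.4 to 21.9 CPM (median 17.7). At chr2:9121801-9122600, between AT2G21300 and AT2G21310, ago4 had 0, spt5l 21.3 and 10.1 CPM and Col-0 9.21 to 22.7 CPM (median 16.7). At chr2:6667951-6668300, between AT2G15320 and AT2G15325, ago4 had 0, spt5l 11.2 and 12 CPM and Col-0 0.204 to 31.0 CPM (median 17.9). There Col-0 of gp3 had 1 read and the other Col-0 libraries 10 to 175, so 1 wild-type library was also nearly empty. The region at chr2:9550201-9550850, next to CYCD2;1, a D-type cyclin gene, was low in spt5l too, with 0 in ago4, 1.55 and 1.36 CPM in spt5l and 1.43 to 22.7 CPM in Col-0 (median 17.4). Its lowest Col-0 library was again that of gp3, with 7 reads.

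The first and last ago4 regions of the interval were less empty. At chr2:4005451-4006100, in the pseudogene AT2G10405 and of the class outside RdDM, ago4 had 0.719 and 0.231 CPM, spt5l 27.1 and 24.9 CPM and Col-0 12.4 to 27.1 CPM (median 16.8). At chr2:11982301-11982500, between FRA8, a gene of xylan synthesis in the cell wall, and AT2G28120, ago4 had 0.575 and 0.231 CPM, spt5l 8.13 and 8.35 CPM and Col-0 0.815 to 9.52 CPM (median 4.85). Both were lower in each ago4 library than in all Col-0 libraries.

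The 4 regions highest in ago4 were of the class outside RdDM and nearly empty in spt5l and Col-0. At chr2:7525651-7526000, between AT2G06935 and AT2G17305, the strongest window had 144 and 82 reads in ago4, 2 and 2 in spt5l and 1 in Col-0 over 6 libraries (404 times Col-0, counting interval 71.8 to 16000). At chr2:6711751-6712250, between FUT4, a fucosyltransferase gene, and NRPE3B, a gene for a polymerase subunit, it had 156 and 95 reads in ago4, 0 and 1 in spt5l and 2 in Col-0 (225 times, 61.5 to 1860). At chr2:9457501-9457700, between AT2G22241 and AAT, an aspartate aminotransferase gene, it had 120 and 45 reads in ago4, 0 in spt5l and 1 in Col-0 (295 times, 52.3 to 11700). At chr2:8014951-8015150, in AT2G00630, a gene for an RNA of unstated type, it had 66 and 38 reads in ago4, 0 in spt5l and 3 in Col-0 (62.0 times, 20.6 to 306). These windows had enough reads to be tested only through the 2 ago4 libraries, and they were ranked by their rise in ago4. That they were high in both ago4 libraries and almost absent from wild type follows from this choice.

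**Figure D5:**
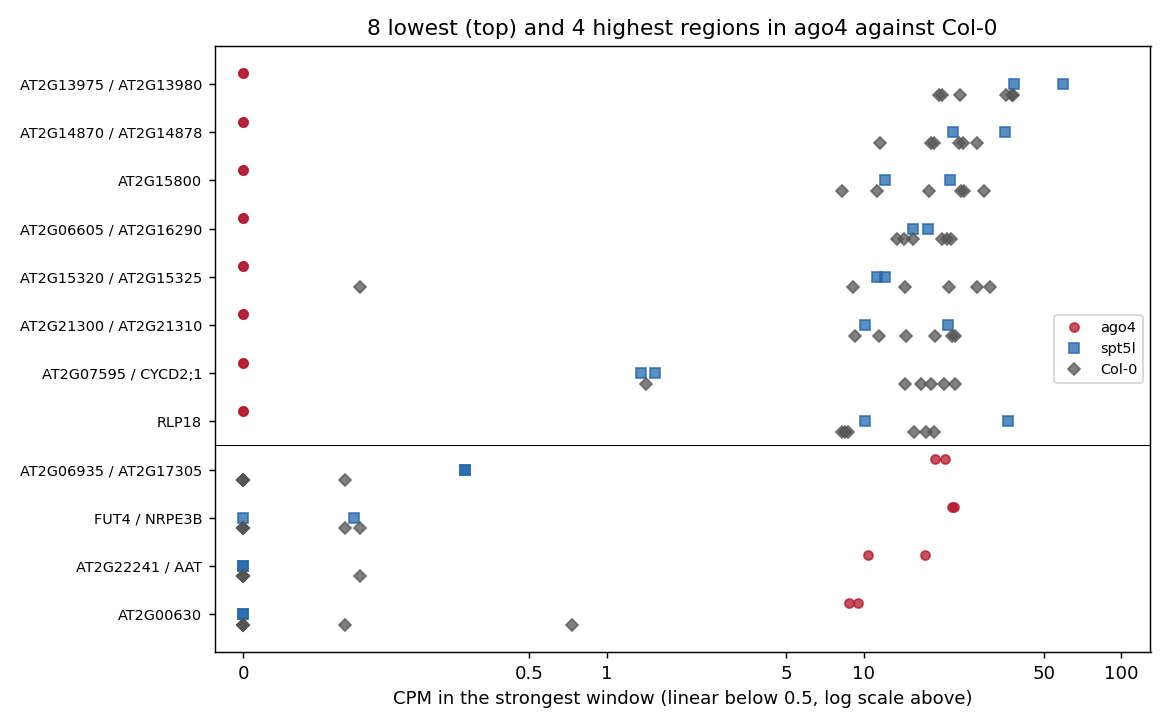
CPM in the strongest window of the 8 lowest (above the line) and 4 highest regions in ago4 against Col-0, for each ago4 (circles), spt5l (squares) and Col-0 library (diamonds). The axis is linear below 0.5 and logarithmic above. All ago4 libraries are at 0 in the upper 8 regions, where most spt5l and Col-0 libraries lie above 8 CPM.

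Reads at sites empty in wild type were also counted over all classes. In the interval 154 of 53334 windows had no read in any Col-0 library and 10 or more over both ago4 libraries. That is 28.9 per 10000 windows, beside 9.75 on the rest of chromosome 2 and 13.1 on the other chromosomes. For spt5l it was 20 windows, or 3.75 per 10000, beside 4.36 and 4.81. None of these 154 windows is in the Pol V lists. They were picked for having no Col-0 read, and no window so picked in the interval for any other mutant is listed either. This therefore says nothing particular to ago4.

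The 5 regions lowest in spt5l were others, and ago4 was below the Col-0 median in each of them. At chr2:11834551-11835050, between AT2G27770 and AT2G27775, spt5l had 0 in both libraries, ago4 2.30 and 0.231 CPM and Col-0 9.78 to 25.3 CPM (median 16.7), so that spt5l was at least 57.5-fold lower than Col-0. In AT2G00790 at chr2:10434901-10435400, spt5l had 0, ago4 0.719 and 0 CPM and Col-0 9.17 to 24.6 CPM (median 16.4), at least 56.7-fold lower. The next 3 were at chr2:6809851-6810350 beside NIR1, a nitrite reductase gene, at chr2:10137901-10138250 beside TET8, a tetraspanin gene, and at chr2:9432001-9432350 between AT2G07535 and AT2G07545. There spt5l had 0 and ago4 0 to 1.72 CPM, while Col-0 had medians of 15.4, 15.5 and 13.2 CPM. In 2 of these 3, Col-0 of gp3 had at most 1 read. The ago4 and spt5l comparisons use the same Col-0 libraries.

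The 3 regions highest in spt5l were small. In AT2G27229 at chr2:11649001-11649200, spt5l had 10.8 and 12.2 CPM, ago4 0.144 and 0 CPM and Col-0 0 to 1.10 CPM (33.3 times Col-0). At chr2:6652801-6653150, beside ARFB1A, an ADP-ribosylation factor gene, spt5l had 12.2 and 8.74 CPM and Col-0 0.366 to 1.95 CPM (8.81 times). At chr2:4104001-4104350, between AT2G10555 and AT2G10556, spt5l had 7.93 and 7.77 CPM and Col-0 0 to 1.43 CPM (7.21 times). In each place both spt5l libraries lay above all 6 Col-0 libraries. These windows passed the read filter only through spt5l and were ranked by their rise there, so this follows from the choice.

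For suvh2 and suvh2/suvh9, with 1 library each, Pol V counts were summed in tiles of 5 kb and set against Col-0 of gp4, with no test. Tile ratios were scaled to the Pol V counts of chromosomes 1, 3, 4 and 5 of each library. Of 985 tiles in the interval with 30 or more Col-0 counts, 317 were more than 2-fold lower in suvh2 (32.2%), beside 35.6% of all 9858 tiles. In suvh2/suvh9 it was 351 (35.6%), beside 38.5%, and in suvh9 84 (8.53%), beside 10.1%. More than 2-fold higher were 13 tiles in suvh2 (1.32%, beside 2.09%), 43 in suvh2/suvh9 (4.37%, beside 5.45%) and 5 in suvh9 (0.508%, beside 2.63%). In drd1 638 tiles were lower (64.8%, beside 66.9%) and 54 higher (5.48%, beside 7.07%), and in dms3 613 lower (62.2%, beside 64.7%) and 60 higher (6.09%, beside 6.76%). The shares in the interval were close to those of the genome or below them. The median tile ratio was 0.655 in suvh2 and 0.657 in suvh2/suvh9 in the interval, beside 0.620 and 0.615 over all tiles. The scaling takes out a loss of Pol V counts shared by the genome, so these medians do not give the Pol V RNA left. As a share of all counts outside ribosomal DNA, suvh2 members were at 0.612 times Col-0 of gp4 and suvh2/suvh9 members at 0.359 times.

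Some tiles were nearly empty in suvh2. Counts of named tiles are as deposited, not scaled for depth, while their ratios and ranking are scaled as above. At chr2:9565001-9570000, by UCP5, a mitochondrial carrier gene, suvh2 had 0 counts and suvh2/suvh9 2, against 77 in suvh9 and 110 in Col-0 of gp4. At chr2:7370001-7375000, in MEE15, suvh2 had 5 and suvh2/suvh9 6, against 258 in suvh9 and 229 in Col-0 (ratio of suvh2 to Col-0 0.0253, counting interval 0.00812 to 0.0598). At chr2:10510001-10515000 suvh2 had 0, suvh2/suvh9 4, suvh9 28 and Col-0 40 counts, and at chr2:5185001-5190000 the counts were 1, 5, 40 and 38. Suvh9 thus had 28 to 258 counts in these tiles, fewer than Col-0 in 2 of the 4.

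The 4 tiles lowest in suvh2/suvh9 had 0 counts there. By MGDC, a galactolipid synthase gene, at chr2:4750001-4755000, suvh2 had 34, suvh9 41 and Col-0 31 counts. At chr2:5460001-5465000, between the pseudogene AT2G13175 and AT2G13180, suvh2 had 58, suvh9 47 and Col-0 55 counts. At these 2 tiles both single mutants had reads, 34 to 58 counts. In AT2G16300 at chr2:7060001-7065000 the counts were 10 in suvh2, 45 in suvh9 and 38 in Col-0, and in AT2G17033 at chr2:7400001-7405000 they were 16, 36 and 49. There suvh2 lay between suvh2/suvh9 and the rest.

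Of the tiles highest in these mutants, some also held nrpe1 reads. By ST4A, a sulfotransferase gene, at chr2:6415001-6420000, suvh2 had 1944, suvh2/suvh9 881, suvh9 644 and Col-0 410 counts, and nrpe1 of gp4 had 404. In AT2G16230 at chr2:7035001-7040000 suvh2 had 611 counts, nrpe1 184 and Col-0 183. By AT2G21670 at chr2:9265001-9270000 suvh2/suvh9 had 76 counts, nrpe1 23 and Col-0 40. By MIR5020c, a microRNA gene, at chr2:4765001-4770000, suvh2 had 97 and suvh2/suvh9 63 counts, nrpe1 0 and Col-0 31. The last was the only one of these 4 tiles without a read in nrpe1 of gp4.

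DNA methylation of the members was close to that of Pol V windows elsewhere in the RdDM class and higher in the class outside RdDM. In the RdDM class, CHH methylation averaged 6.91% in nrpe1 and 9.98% in Col-0 among members, beside 6.88% and 10.2% elsewhere. CG methylation was 74.7% and 74.2% among members, beside 73.6% and 73.3%. Outside the RdDM class, CHH methylation of members was 0.182% in nrpe1 and 0.272% in Col-0, beside 0.0997% and 0.162% elsewhere. CHG methylation in that class was 1.17% in nrpe1 and 1.20% in Col-0 among members, beside 0.62% and 0.71%. In RdDM members with 30 Col-0 reads, the windows without an ago4 read had 6.12% CHH methylation in nrpe1 and 9.76% in Col-0, and those with an ago4 read had 3.40% and 13.4%. The averages carry no coverage and no spread, and ago4 leaves were not among these samples.

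The windows of the interval outside the Pol V lists took 3.23% and 2.54% of that class's counts in ago4 (gp2 and gp3), 3.45% and 3.29% in spt5l and 2.45% to 3.56% in Col-0, so both mutants lay inside the Col-0 range. With the highest 1 in 100 windows of the class held at a ceiling, the interval took 5.46% and 5.44% of the class's counts in ago4, 5.27% and 5.18% in spt5l and 4.94% to 5.21% in Col-0. Of 277 such windows with 30 Col-0 reads, 3 had no ago4 read (1.08%, Wilson interval 0.369 to 3.14, beside 0.0704% of 5681 in the genome). At a minimum of 20 Col-0 reads it was 11 of 446 (2.47%, beside 0.269% of 8933). Windows without an ago4 read were thus a larger share in the interval in this class as well. At that minimum the same held in suvh9 (15.2%, beside 10.8%), suvh2/suvh9 (11.4%, beside 7.48%) and drd3-3 (13.9%, beside 10.4%). It also held in suvh2 and dms3, but not in spt5l, drd1, dms5-1 or nrpe1, so it was not particular to ago4. At the minimum of 30 reads, 0 of the 277 windows had no spt5l read (0%, Wilson interval up to 1.37%, beside 0.51%).

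The AGO4 and DRD1 genes lie inside the interval, while SUVH2 and NRPE1 lie further along chromosome 2. The 39 windows of AGO4, at chr2:11536501-11542400 near the right edge of the block, include 13 members. They had 10 and 0 counts in ago4 and 0 to 31 in Col-0, too few for a test. The 27 windows of DRD1, at chr2:7097251-7101350, include 5 members and had 2 counts in drd1, against 4 in Col-0 of gp4. IPARE does not measure messenger RNA and the sites of the mutations are not stated, so these counts check no label. Of 21 RdDM pathway genes, AGO4 and DRD1 were the ones in the interval, and neither had a window with enough reads to be tested.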

How the data were processed

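IPARE counts per window of 200 bp, starting every 150 bp, were used as the authors deposited them, for 24 libraries. The submitters' processing notes name UMI-tools, cutadapt, Bowtie2, Bismark and the build TAIR10, without roles. None of these sources states whether a count is a molecule or a read. The class lists deposited by the authors come from a hidden Markov model, per the file names. Methylation is a fraction per window and genotype that the authors averaged over samples, per the file headers, printed here as percent. No paper was used, and the members, gene lists and named-region rule were chosen with earlier results of these data known.

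Member counts were divided by Pol V counts of chromosomes 1, 3, 4 and 5, without ribosomal DNA windows. Windows were tested with edgeR 4.0.16 (quasi-likelihood, TMM, filterByExpr at 10 counts and 15 in total, 19 libraries of genotypes with more than 1) and a threshold of 0.05 after Benjamini-Hochberg adjustment. DESeq2 1.42.0, other scalings, a looser filter, a set term and leaving out each library were alternatives. Bins of 100 kb carried a pseudocount of 1 and needed 20 Col-0 counts. In counts simulated for ago4 against Col-0 over 36843 windows, changes of -4, -2, 2 and 4 (log2, 50 windows each) were called in 72%, 4%, 28% and 96% of cases, with 16 false calls. Named were the 8 lowest and 4 highest ago4 regions, the 5 lowest and 3 highest spt5l regions, the first and last ago4 region, and for suvh2 and suvh2/suvh9 the 4 lowest and 3 highest tiles. Intervals (95%) and floors (3 counts) cover counting error only. No 2 libraries of the same genotype agreed within sampling noise. Promoter, genome and protein sequences were not used here. Figures were drawn from the same values.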

Additional observations from a re-analysis of the deposited data

Results flagged for a closer look

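In the nrpe1 library of gp3 the members had 2.73 counts per 100 Pol V counts of chromosomes 1, 3, 4 and 5, against 4.47 to 5.02 in the other 4 nrpe1 libraries. It was singled out because its gap to the nearest of them is large for a group of 5, by a criterion that picks about 1 group in 20 by chance.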

How the results depend on the processing

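With windows rich in nrpe1 reads left out, an alternative chosen after seeing the data, the log2 difference of the member share from Col-0 reversed to 0.122 in suvh2 and was -0.033 in suvh2/suvh9. As a share of all counts outside ribosomal DNA it was -0.728 in ago4, -0.709 in suvh2 and -1.478 in suvh2/suvh9. In suvh2 it was -0.332 with RdDM windows only, -0.036 with windows capped, -0.333 with every second window and -0.276 against all 6 Col-0 libraries. In suvh2/suvh9 it was -0.295 with RdDM windows only, -0.182 capped and -0.301 against all 6. With a looser filter on low counts, 1671 of 16741 members tested were lower and 246 higher in ago4 against Col-0. Over all 208683 windows tested, 5186 were lower and 4727 higher. In spt5l 191 of 17991 members were lower and 57 higher, beside 2402 and 1450 of all 216949 windows. In ago4 against spt5l 1479 of 12385 members were lower and 218 higher, beside 3916 and 3803 of all 162270 windows. Of 3151 members tested, those higher numbered 44, 11 and 56 in these comparisons with DESeq2 size factors and 32, 6 and 43 with DESeq2. With library totals it was 46 in ago4 against Col-0. Over all 36843 windows tested the numbers were 403, 144 and 692 with DESeq2 size factors, 197, 87 and 444 with DESeq2, and 410 with library totals. Members without an ago4 read were 10.8% at a minimum of 20 Col-0 reads and 6.84% at 50. The cause was not tested.

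The chromosome 2 segment of the mean of both ago4 libraries kept its edges within 0.1 Mb in bins of 50 and 250 kb and with windows capped, while that of spt5l moved to 13.8 to 14.3 Mb in bins of 50 kb and ended at 14.25 Mb in bins of 250 kb. The right edge of suvh2 moved to 5.7 Mb (50 kb bins, and capped) and 7.0 Mb (250 kb), and that of suvh2/suvh9 to 5.3 Mb and 3.75 Mb. In 250 kb bins the gp2 ago4 library alone gave a segment of 7.5 to 12 Mb, against 3.1 to 12 Mb in 100 kb bins.

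Leaving out each library gave log2 differences of -0.622 to -0.470 for ago4, 0.022 to 0.067 for spt5l, -1.336 to -1.022 for dms5-1 and -0.416 to -0.375 for drd3-3. Without Col-0 of gp3, 1041 of 2806 members tested were lower in ago4 and 162 higher, beside 4596 and 2134 of all 33182 windows. In spt5l it was 198 and 65 members, beside 2292 and 763 of all windows. Members lower in ago4 numbered 424 to 1041 (555 without ago4 of gp3) and higher 37 to 162. Members lower in spt5l numbered 2 to 198 (12 without spt5l of gp3) and higher 0 to 65 (13 without untagged Col-0, 16 without that of gp2 or gp4). In ago4 against spt5l 373 to 601 were lower (515 without ago4 of gp3) and 35 to 67 higher (38 without ago4 of gp2). With 1 library of dms5-1 or drd3-3 left, the exact permutation p was 0.143, the smallest possible.

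Whether the set tags pair libraries was checked by the correlation of deviations from the group means: same-set Col-0 libraries had r of 0.179, 0.245, 0.396, 0.195 and 0.0401 with nrpe1, 0.317 and 0.277 with ago4, 0.41 and 0.22 with spt5l, 0.0145 and 0.0386 with dms5-1, and -0.0517 and 0.0187 with drd3-3. Sets were not treated as pairs, since the tag is unexplained, not every nrpe1 pair passed 0.1 and the other genotypes have 2 pairs each. With the set as a replicate block, the difference was -0.511 for ago4 and 0.040 for spt5l, and -1.178 for dms5-1 and -0.394 for drd3-3, where 2 pairs allow no exact p under 0.5. With the block, members lower and higher numbered 849 and 57 in ago4, 100 and 14 in spt5l, and 718 and 92 in ago4 against spt5l. Over all 36843 windows tested the numbers were 2600 and 465, 1188 and 167, and 1994 and 1191.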

Other observations

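Segments of the same kind were placed on the other chromosomes. In ago4 the one on chromosome 1 ran from 7.6 to 9.5 Mb with a log2 difference, inside minus outside, of -0.646. The one on chromosome 5 ran from 25.6 to 26.8 Mb with a difference of -0.622. Both differences were larger than the -0.448 of the longer chromosome 2 segment. In suvh9, on chromosome 3 from 15.6 to 19.1 Mb, the log2 ratio to Col-0 of gp4 was 0.98 inside and -0.249 outside, and this segment took up 61.6% of the variance between bins of that chromosome. It rests on 1 library. For the mean of dms5-1 the chromosome 2 segment, from 0 to 10.7 Mb, was lower inside by -1.239. Those on chromosomes 1, 3, 4 and 5 differed more, by -1.575, -1.685, -1.894 and -1.61. For the mean of drd3-3 the chromosome 2 segment, from 2.5 to 5.5 Mb, was higher inside by 1.289. On chromosomes 3, 4 and 5 it was higher by 1.133, 1.397 and 1.125, and on chromosome 1 it was at -0.752.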
